A study of Mus musculus with 7 samples.

Results

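Ion channels that open with voltage, with calcium or at rest set how neurons fire, and 118 of the 18193 genes measured on these arrays encode a subunit of one or are named after one. The set was taken by gene symbol: calcium channel genes whose symbols begin with Cacna, Cacnb or Cacng, sodium channel genes that begin with Scn and a number, and potassium channel genes that begin with Kcn and a letter from a to v, without Kcnq1ot1. The rule used no measured value. It reaches wider than voltage-gated pores, since it also takes accessory subunits, inward rectifiers, two-pore channels, channels opened by calcium or sodium, and 2 noncoding transcripts, Kcnmb4os1 and Kcnmb4os2. Where a gene had several probe sets (the groups of short probes that each read a stretch of transcript), the brightest on average across the 7 arrays was used.

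The 118 genes were compared between the hypothalamus of Creb-PomcCre-/- mice (3 arrays) and that of wild-type mice (4 arrays), all at 3 months of age, to ask which hypothalamic genes depend on Creb in the Pomc neurons that control appetite. Creb1 encodes a transcription factor activated downstream of cyclic AMP and calcium. The Cre recombinase that removes it is driven by Pomc, so the deletion is aimed at Pomc cells, while the arrays read RNA of the whole hypothalamus. The labels call the samples biological replicates and give neither the number of mice in a sample nor the Cre or floxed alleles of the wild-type mice. In such bulk RNA, fewer cells of a type and less RNA per cell cannot be told apart.

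A voltage-gated calcium or sodium channel is built on 1 large pore-forming protein, to which smaller subunits attach that set its traffic and gating. Most potassium channels assemble several copies of a smaller pore protein. Sodium channels drive the action potential and potassium channels end it. Calcium channels convert it into transmitter release, dendritic signals and gene activation. In Pomc neurons the ATP-sensitive and G-protein-gated potassium channels are known to couple glucose, leptin and transmitters to firing.

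All values are log2 expression values, and every difference is knockout minus wild type on that scale. The medians of the 7 arrays lay between 6.195 and 6.241, and any pair of arrays correlated at 0.9941 to 0.997 over probe sets. The median standard error of a channel gene's difference was 0.080. The Creb1 probe sets, of which there are 6, differed by -0.11 to 0.18, and the 2 for Pomc by 0.21 and 0.22, and 0 of these 8 passed the threshold. They do not check the labels, since no source used here says whether these probe sets lie inside the deleted stretch of Creb1. The 16 hypothalamus markers measured averaged 9.97 to 10.09 in knockout arrays and 9.75 to 10.07 in wild-type arrays. Wild-type array 2 stood apart in markers of thalamus and of meninges, and wild-type array 3 in those of meninges. Thalamus and habenula markers averaged 7.53 to 8.29 in knockout arrays and 7.795 in wild-type array 3. They reached 9.19 in wild-type array 2 and 8.47 in wild-type array 4. Meningeal markers averaged 6.49 to 7.06 in knockout arrays and reached 8.38 in wild-type array 3 and 7.61 in wild-type array 2.

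No single channel gene passed the threshold, and the smaller unadjusted p-values lay mostly on the lower side. The counts were 0 of 118 channel genes past an adjusted p of 0.05 (limma, Benjamini-Hochberg over all 18193 genes), where 0.011% of all genes passed in either direction. At an unadjusted p under 0.05, 19 channel genes (16.1%) were on the lower side, against 6.12% of all genes, and 4 (3.39%) were on the higher side, against 5.6% of all genes. The 2 groups were fully separated for 15 channel genes with the knockout lower, against 6.05% of all genes, and for 3 with the knockout higher, against 6.09% of all genes. The difference was negative for 71 channel genes and positive for 47. Its median was -0.027 over channel genes and 0.0036 over all genes. With the replicate number as a block, a fit that holds the arrays numbered 1 to 3, 2 channel genes were on the higher side and 16 on the lower side, where all genes gave 5.19% and 6.24%. Of the 19 genes on the lower side, 14 kept an unadjusted p under 0.05 in that fit, and the lowest adjusted p of a channel gene was 0.404.

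The 19 genes on the lower side differed by -0.43 to -0.13, with a median of -0.22. They encode pores for calcium (Cacna1a, Cacna1b, Cacna1c, Cacna1d and Cacna1g), sodium (Scn1a and Scn8a) and voltage-gated potassium currents (Kcna1, Kcna2, Kcna6, Kcnc1 and Kcnd3), together with the subunits Cacnb4, Cacng2, Cacng4, Scn4b and Kcnab2, the sodium-activated channel Kcnt1 and the inward rectifier Kcnj9. The 4 on the higher side were Kcnk5, Kcnk13, Kcnk16 and Kcns1. All 19 lay among the 90 channel genes whose mean level was at or above the 30th percentile of all genes, a value of 5.70. There they made up 21.1%, against 7.77% of all genes of that range. The share of all genes on the lower side was higher still among the brightest: of 10 equal bins by mean level, the ninth held 9 of the 19 among its 17 channel genes, against 12.8% of all its genes, and the brightest held 1 among its 8, against 10.7%. The median difference of those 90 was -0.053, and that of all genes of that range was -0.0067. Of the 28 dimmer channel genes, 3 were on the higher side and 0 on the lower side, with a median of 0.048. RMA gives no detection call, so a value in that dim range cannot be told from background.

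**Figure D1:**
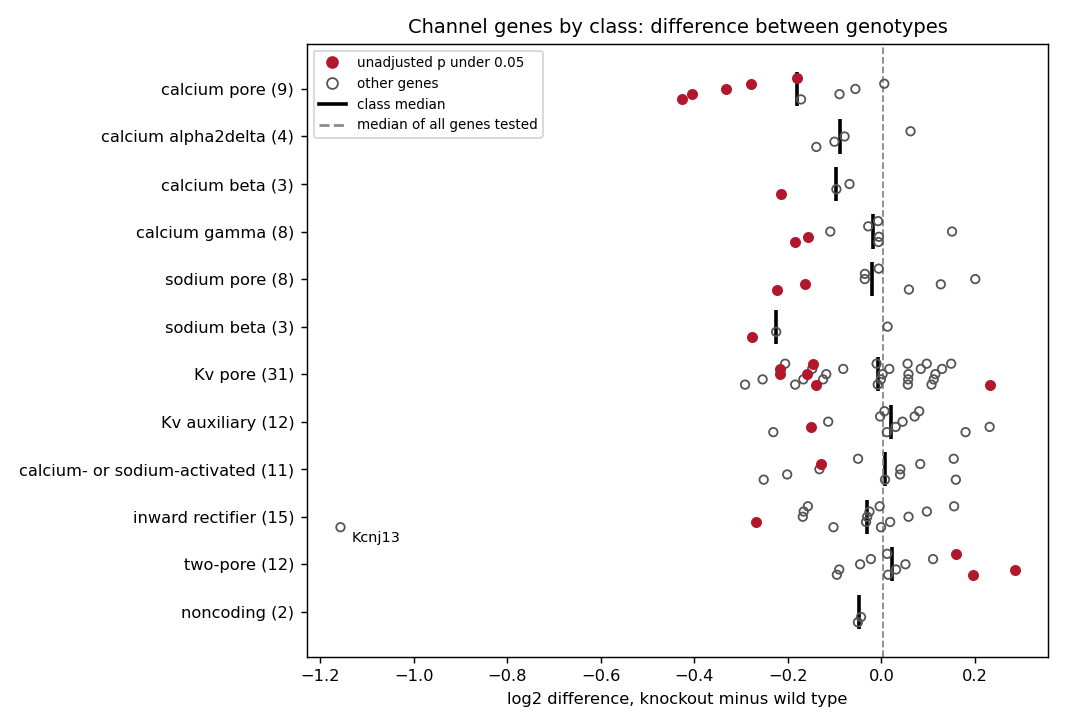
Log2 difference, knockout minus wild type, of each of the 118 channel genes (points, filled at an unadjusted p under 0.05), by channel class, with the class median as a solid line and the median of all genes as a dashed line. Calcium pore genes have the median -0.18, the Kv pore genes sit around -0.0078, and Kcnj13 at -1.16 is the gene farthest from 0.

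Pore genes of calcium channels leaned to the lower side. Of 9, 8 were negative, and the median was -0.18. On the lower side at an unadjusted p under 0.05 stood 5 (55.6%), against 6.12% of all genes. The groups did not overlap for 4 (44.4%), against 6.05% of all genes. Cacna1a encodes the pore of the P/Q-type channel that triggers transmitter release at most central synapses. It read 7.63, 7.56 and 7.54 in knockout arrays, against 7.90, 8.06, 7.96 and 8.02 in wild-type arrays. Every knockout array lay below every wild-type array. The mean was 7.58 ± 0.051 (SD, n = 3) in the knockout and 7.98 ± 0.071 (SD, n = 4) in wild type, a difference of -0.41 ± 0.061 (SE), or 24.5% less signal, with the lowest adjusted p of the set (limma, adjusted p = 0.143). The other 3 Cacna1a probe sets differed by -0.17, -0.022 and 0.21. The probe sets of this gene thus did not share a direction, though the positive one was at a dim level.

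Cacna1b, the pore of the N-type channel that also serves transmitter release, was lower at all of its probe sets. It read 9.84, 9.69 and 9.85 in knockout arrays, against 10.04, 10.03, 10.15 and 10.07 in wild-type arrays, again with no overlap. The difference was -0.28 ± 0.053 (SE; limma, adjusted p = 0.192), and the other 3 probe sets differed by -0.22, -0.21 and -0.019. Cacna1c, the main L-type pore of brain, heart and vessels, and a route from calcium entry to the nucleus, read 7.66, 7.59 and 7.73 in knockout arrays, against 7.87, 8.38, 7.93 and 8.16 in wild-type arrays. The groups did not overlap, and wild-type array 2 was the highest. The difference was -0.43 ± 0.12 (SE; limma, adjusted p = 0.273), and the other probe set of Cacna1c differed by -0.60.

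The low-voltage-activated, T-type pores let neurons fire in bursts from rest. Among them Cacna1g read 8.81, 8.69 and 8.85 in knockout arrays, against 8.90, 9.37, 9.02 and 9.18 in wild-type arrays. There was no overlap, though knockout array 3 and wild-type array 1 were close. Its difference was -0.33 ± 0.10 (SE; limma, adjusted p = 0.313). Cacna1h, the other T-type pore measured, differed by -0.17 and overlapped between groups. Cacna1d, the L-type pore that opens at lower voltages than Cacna1c, differed by -0.18 with overlap. The R-type pore Cacna1e differed by -0.056. The retinal and muscle pores, Cacna1f and Cacna1s, differed by 0.0062 and -0.090.

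**Figure D2:**
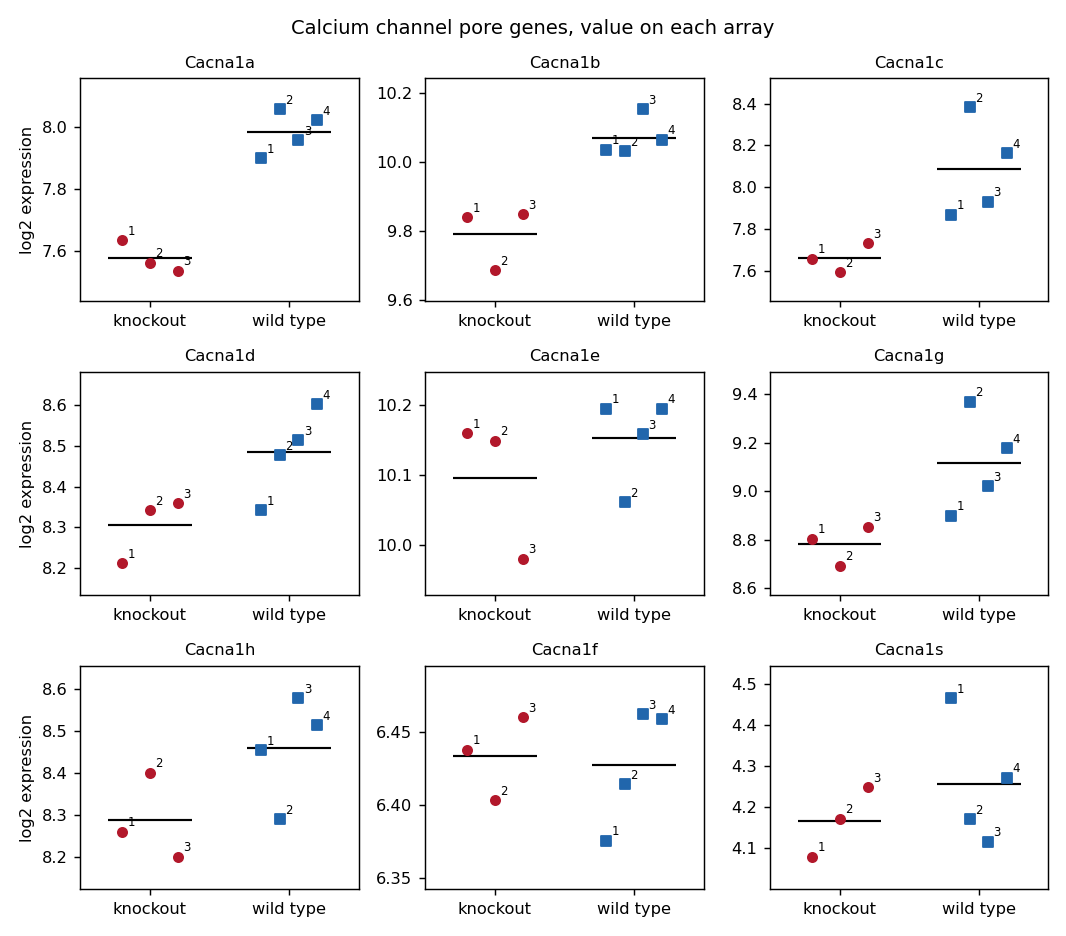
Log2 level of calcium pore genes in each array, knockout arrays left of wild-type arrays, with points numbered by array, the group mean as a black line and a separate vertical range per panel. The points of the 2 groups do not overlap for Cacna1a, Cacna1b, Cacna1c and Cacna1g.

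Accessory subunits of calcium channels gave smaller differences. The alpha2delta subunits, which carry channels to the membrane, had a median of -0.090 over 4 genes with 0 at an unadjusted p under 0.05, and Cacna2d3 and Cacna2d2 differed by -0.10 and -0.079. All 3 beta subunits, which bind the pore from inside the cell, were negative: Cacnb4 differed by -0.22 (limma, adjusted p = 0.414) and by -0.13 without wild-type array 2, Cacnb1 by -0.096, and Cacnb2 by -0.068 with no overlap. The gamma group of 8 genes also holds partners of AMPA-type glutamate receptors. Its member Cacng2 (stargazin), which brings those receptors to synapses, read 9.90, 9.83 and 9.79 in knockout arrays, against 9.96, 9.99, 9.98 and 10.05 in wild-type arrays. All knockout values were below all wild-type values, with a difference of -0.16 ± 0.042 (SE; limma, adjusted p = 0.27), and its 3 probe sets all had a negative sign. Cacng4 differed by -0.18 (limma, adjusted p = 0.392), and Cacng1, known from skeletal muscle, by 0.15 at a dim level.

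Among the 8 sodium pores the median was -0.020. On the lower side at an unadjusted p under 0.05 stood 2 (25.0%), against 6.12% of all genes. Both were without overlap, against 6.05% of all genes. Scn8a, the pore concentrated at the axon initial segment and nodes, read 10.35, 10.24 and 10.34 in knockout arrays, against 10.47, 10.66, 10.50 and 10.50 in wild-type arrays. Its highest knockout value was below its lowest wild-type value. The difference was -0.22 ± 0.054 (SE; limma, adjusted p = 0.267). Of its other 4 probe sets, 3 differed by -0.25, -0.29 and -0.36 and the remaining one by 0.14 at a dim level. Scn1a, the pore that inhibitory neurons rely on most, read 10.44, 10.23 and 10.44 in knockout arrays, against 10.51, 10.65, 10.48 and 10.49 in wild-type arrays. Without knockout array 2 its difference of -0.16 (limma, adjusted p = 0.387) became -0.094. Scn2a, the pore of excitatory axons, differed by -0.036 (limma, adjusted p = 0.713). Its other probe sets differed by -0.12 and -0.17, both without overlap, and by 0.19 at a dim level. On the other side stood Scn9a, known for pain and also made in hypothalamic neurons, with 0.13 (limma, adjusted p = 0.517), and Scn7a, a sodium sensor of the brain's osmotic centres, with 0.20. Both overlapped between groups. Of the beta subunits, Scn4b, which shapes resurgent current, read 6.95, 6.80 and 6.97 in knockout arrays, against 7.16, 7.36, 7.25 and 6.97 in wild-type arrays. Knockout array 3 and wild-type array 4 read alike, and the difference was -0.28 ± 0.097 (SE; limma, adjusted p = 0.35). Scn2b differed by -0.23, a value that was -0.076 without knockout array 1.

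The 31 pores of voltage-gated potassium channels, the largest class, had a median of -0.0078, with 17 negative and 14 positive. With the dim genes left out the median was -0.12. At an unadjusted p under 0.05 there were 5 on the lower side (16.1%) and 1 on the higher side (3.23%). All genes gave 6.12% and 5.6%. Kcnc1, which lets neurons fire at high rates, read 11.09, 10.80 and 10.86 in knockout arrays, against 11.15, 11.14, 11.15 and 11.11 in wild-type arrays. Knockout array 1 lay just under the wild-type arrays, which were nearly equal. Its difference was -0.22 ± 0.063 (SE; limma, adjusted p = 0.286), and its other probe sets differed by -0.14, -0.22 and 0.13. Kcna6, a subunit of axonal delayed-rectifier channels, read 8.79, 8.84 and 8.83 in knockout arrays, against 9.02, 8.98, 8.92 and 8.94 in wild-type arrays, with no overlap. Its difference was -0.14 ± 0.045 (SE; limma, adjusted p = 0.32). Kcna1 and Kcna2, which form channels with it along axons, differed by -0.22 (limma, adjusted p = 0.391) and -0.16 (limma, adjusted p = 0.367).

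Kcnd3, an A-type pore that delays firing, differed by -0.15 without overlap (limma, adjusted p = 0.326), and Kcnd2, the other A-type pore of hypothalamic neurons, by -0.15 with overlap (limma, adjusted p = 0.496). Kcnd2 without wild-type array 2 was at -0.072. Of the M-current subunits, which hold neurons back from repetitive firing, Kcnq3 differed by -0.17 and was at -0.079 without wild-type array 2, and Kcnq5 differed by -0.0078. Kcns1, a silent subunit that modifies other pores, read 5.06, 4.82 and 5.01 in knockout arrays, against 4.70, 4.77, 4.84 and 4.62 in wild-type arrays. The ranges met at knockout array 2 and wild-type array 3, and the difference was 0.23 ± 0.086 (SE; limma, adjusted p = 0.367) at a dim level. Kcnh3, a pore of forebrain neurons, differed by 0.15.

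The 12 accessory Kv genes had a median of 0.021. Kcnab2, the beta subunit that takes Kcna channels to axons, read 9.79, 9.70 and 9.81 in knockout arrays, against 9.87, 9.99, 9.82 and 9.99 in wild-type arrays, with the groups just apart. Its difference was -0.15 ± 0.055 (SE; limma, adjusted p = 0.363). Kcne1l, of a family of small subunits with a single membrane span, read 7.98, 8.38 and 7.93 in knockout arrays, against 7.91, 7.79, 7.89 and 7.86 in wild-type arrays. All knockout values were above all wild-type values, but the difference of 0.23 was 0.090 without knockout array 2. Kcne2, of the same family, differed by 0.18 at a dim level.

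**Figure D3:**
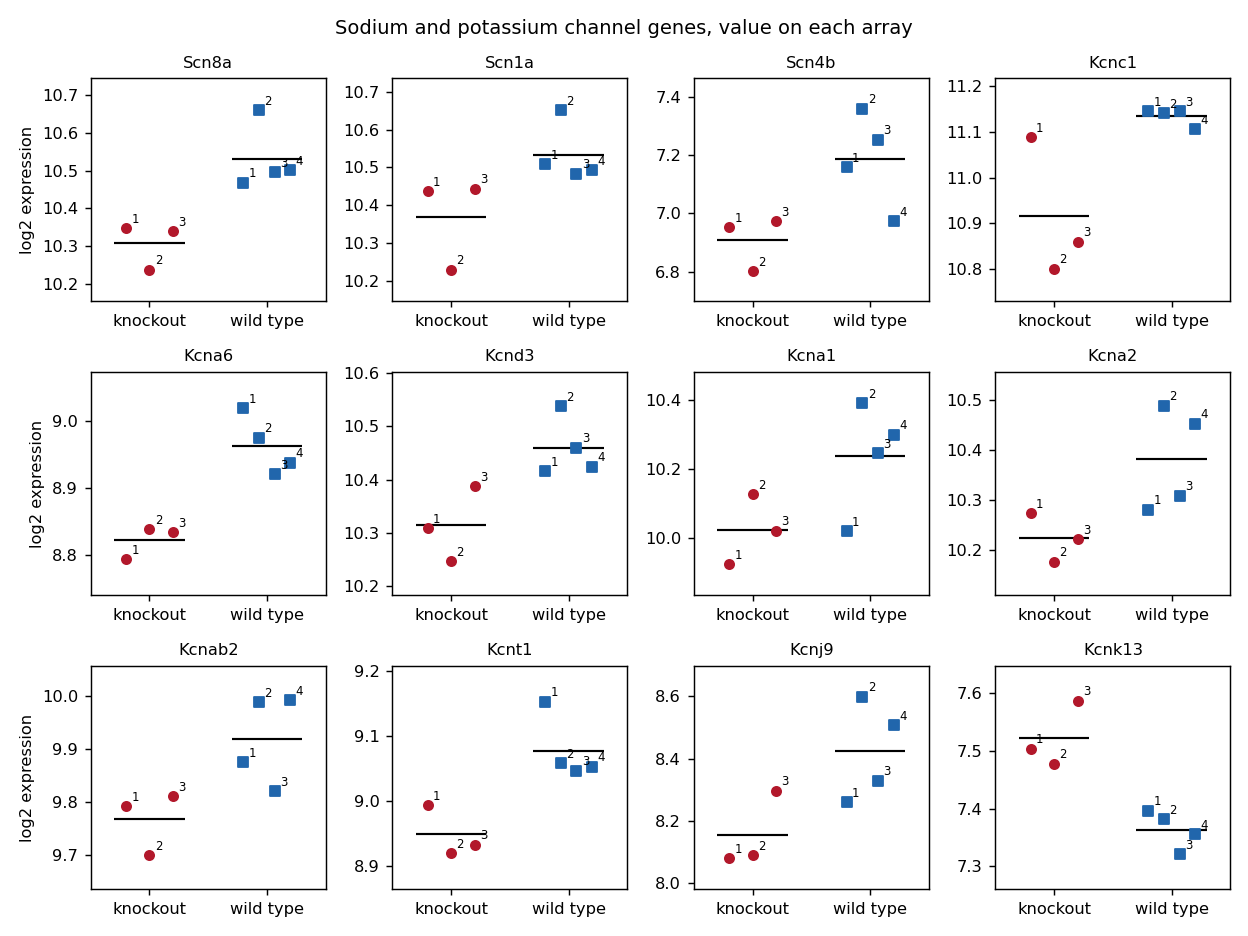
Log2 level of sodium and potassium channel genes in each array, knockout arrays left of wild-type arrays, with points numbered by array, the group mean as a black line and a separate vertical range per panel. Scn8a (-0.22) and Kcnc1 (-0.22) are lower in every knockout array, and Kcnk13 (0.16) is higher in every knockout array.

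Channels opened by calcium or sodium shape the pause after a spike. Their median was 0.0077 over 11 genes. Kcnt1, opened by sodium, read 8.99, 8.92 and 8.93 in knockout arrays, against 9.15, 9.06, 9.05 and 9.05 in wild-type arrays. There was no overlap, and the difference was -0.13 ± 0.047 (SE; limma, adjusted p = 0.364), with all 3 of its probe sets negative. Kcnma1, the large-conductance calcium-activated pore, differed by -0.13 (limma, adjusted p = 0.517), and Kcnn3, a small-conductance pore, by 0.040. Kcnn4, the intermediate-conductance pore known from blood and immune cells, read 6.29, 6.44 and 6.24 in knockout arrays, against 6.07, 6.20, 6.20 and 6.19 in wild-type arrays. Its groups did not overlap, with a difference of 0.16 (limma, adjusted p = 0.456). The accessory subunit Kcnmb2 differed by 0.15, and by 0.036 without knockout array 1.

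Inward rectifiers hold the resting potential and include the channels best known from Pomc neurons. Kcnj11, the pore of the ATP-sensitive channel through which glucose excites these cells, read 8.54, 8.58 and 8.59 in knockout arrays, against 8.61, 8.59, 8.59 and 8.61 in wild-type arrays. The values spanned a narrow band in which the groups met, and the difference was -0.033 ± 0.043 (SE; limma, adjusted p = 0.796). Abcc8, the sulfonylurea receptor that assembles with Kcnj11, differed by -0.15 without overlap (limma, adjusted p = 0.447). Kcnj8, the ATP-sensitive pore of vessels, also had no overlap and differed by -0.17 (limma, adjusted p = 0.459).

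The G-protein-gated rectifiers, through which opioids, GABA and other transmitters silence neurons, all had a negative difference at their brightest probe set, of unequal size. Kcnj9 read 8.08, 8.09 and 8.30 in knockout arrays, against 8.26, 8.60, 8.33 and 8.51 in wild-type arrays. Knockout array 3 was above wild-type array 1, and the difference was -0.27 ± 0.094 (SE; limma, adjusted p = 0.35). The other Kcnj9 probe sets differed by -0.35 ± 0.49 (SE), by -0.10 at a dim level, and by 0.15. Kcnj3 differed by -0.10, and by -0.011 without wild-type array 2. Kcnj5 differed by -0.030 with overlap, and its other probe set by 0.16 at a dim level. Kcnj6 differed by -0.00082, and its other 4 probe sets by 0.0049 to 0.30, all at a dim level. Of the glial rectifiers, Kcnj10, which clears potassium in astrocytes, differed by -0.17, and Kcnj16, its partner, by 0.16.

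Kcnj13 had the widest spread of the channel genes. It is known from choroid plexus and retinal pigment epithelium, and was reported to couple to the melanocortin receptor Mc4r in hypothalamic neurons. It read 4.68, 4.78 and 4.40 in knockout arrays, against 4.73, 6.33, 7.19 and 4.86 in wild-type arrays. Wild-type arrays 2 and 3 were high, and the other 2 wild-type arrays lay in or near the knockout range. The difference of -1.16 ± 0.54 (SE; limma, adjusted p = 0.448) was -0.69 without wild-type array 3. The mean of Kcnj13 over the 7 arrays, 5.28, lay in the dim range. The same 2 wild-type arrays were high in the mean of the meningeal markers, with Igfbp2 and Aldh1a2 as examples. Igfbp2 read 6.75, 6.44 and 6.38 in knockout arrays, against 6.78, 8.12, 8.999 and 6.86 in wild-type arrays. Aldh1a2 read 5.28, 5.03 and 4.70 in knockout arrays, against 5.43, 6.77, 7.62 and 4.94 in wild-type arrays. Over the 12 meningeal markers, 10 were negative, and not all followed these examples. Col1a1 and Lum were positive and highest in knockout array 2, at 7.78 and 7.34. The choroid plexus marker Ttr read 6.10, 6.09 and 5.95 in knockout arrays, against 5.80, 7.45, 6.14 and 6.0 in wild-type arrays, high in wild-type array 2 only. Kl, another marker of that list, was highest in wild-type array 3 (5.64) and next in wild-type array 2 (5.38), at a dim level. Choroid plexus markers averaged 5.91 to 5.98 in knockout arrays and 5.98 to 6.34 in wild-type arrays over 7 genes, of which 6 were negative. The part of either tissue in the Kcnj13 values was not tested.

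**Figure D4:**
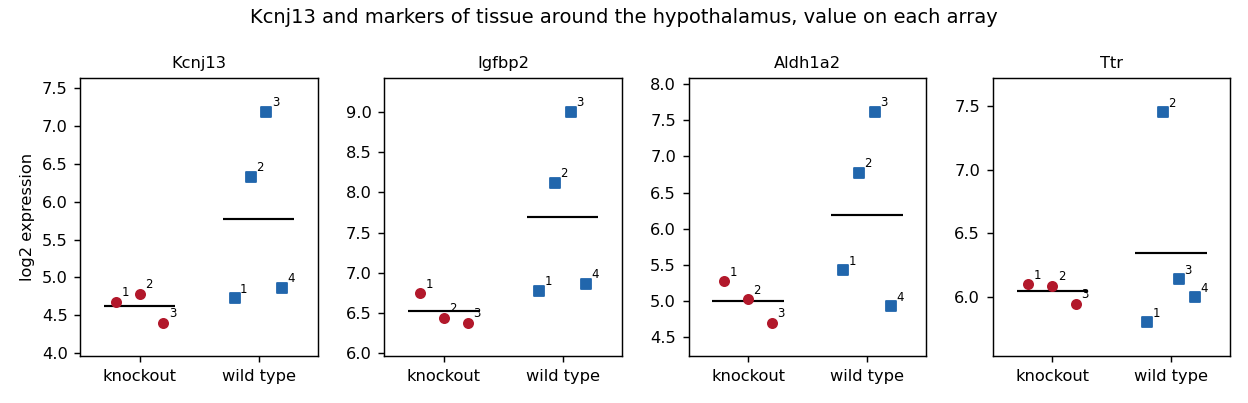
Log2 level of Kcnj13 and of meningeal and choroid plexus marker genes in each array, knockout arrays left of wild-type arrays, with points numbered by array, the group mean as a black line and a separate vertical range per panel. Kcnj13, Igfbp2 and Aldh1a2 are highest in wild-type arrays 3 and 2, while Ttr is high in wild-type array 2.

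Two-pore channels carry the potassium leak that sets excitability at rest. They were the class with the most genes on the higher side, 3 of 12 (25.0%), against 5.6% of all genes. On the lower side they had 0, against 6.12% of all genes. Kcnk13, a leak channel of microglia, read 7.504, 7.48 and 7.59 in knockout arrays, against 7.40, 7.38, 7.32 and 7.36 in wild-type arrays. All knockout values were above all wild-type values. The difference was 0.16 ± 0.058 (SE; limma, adjusted p = 0.362), and the other probe set of Kcnk13 differed by 0.052. Kcnk16, known from pancreatic islets, and Kcnk5, an acid-sensitive channel of epithelia, differed by 0.29 (limma, adjusted p = 0.354) and 0.20 (limma, adjusted p = 0.42), both at a dim level. Kcnk2 and Kcnk3, leak channels of neurons, differed by -0.022 and -0.090. The noncoding transcripts Kcnmb4os1 and Kcnmb4os2 differed by -0.044 and -0.050.

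Counted by probe set, 36 of the 246 channel probe sets (14.6%) were on the lower side at an unadjusted p under 0.05, against 5.07% of all 45037 probe sets, and 10 (4.07%) were on the higher side, against 5.55% of all. After adjustment over all probe sets 0 of the 246 passed (limma, lowest adjusted p = 0.144), against 0.00666% of all. Probe sets of one gene share its transcripts and are not independent. Of the 71 channel genes with several probe sets, 20 were lower at all of them, 15 were higher at all, and 36 had both signs. Among the 19 genes on the lower side, 17 had several probe sets, of which 7 were lower at all of them and 10 were mixed. Among the mixed genes, the positive probe sets of Cacna1a, Kcna2, Kcna6, Kcnd3, Scn1a and Scn8a read below 5.70 in every array, a dim level. Those of Cacng4, Kcnab2, Kcnc1 and Kcnj9 did not. With the mean of all probe sets in place of the brightest, 9 of the 19 stayed at an unadjusted p under 0.05, and all 19 stayed negative. That mean includes the brightest probe set, on which the 19 were chosen.

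CREB binds the palindrome TGACGTCA, called the CRE, and its half-site TGACG, so the promoters of the channel genes were searched for both on either strand. Each full site contains a half-site and is counted with both. Promoter windows of 300 bases (250 before to 50 after the transcription start, RefSeq, GRCm38.p6) were found for 90 channel genes, 125 windows in all. The full site stood in 0 of the 125, against 588 of all 32851 windows (1.79%). The half-site stood in 20 of the 125 (16.0%), against 20.8% of all windows. By gene, 22.2% of the 90 channel genes and 23.0% of all 27025 genes with a window held it. The median difference was -0.037 for the 20 channel genes with a half-site and -0.027 for the 70 without.

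Of the 19 genes on the lower side, 14 had a window and 5 held a half-site, and those 5 windows are shown as examples of where the searched letters lie. Each is printed on the gene's own strand with the half-site in capitals, which reads CGTCA where it lies on the opposite strand. They are chr2:24763103-24763402 on the minus strand for Cacna1b, chr6:119196360-119196659 on the minus strand for Cacna1c (1 of its 3 windows), chr7:46396218-46396517 on the plus strand for Kcnc1, chr6:126740625-126740924 on the minus strand for Kcna6 and chr4:152477500-152477799 on the minus strand for Kcnab2 (1 of its 3 windows).
Cacna1b: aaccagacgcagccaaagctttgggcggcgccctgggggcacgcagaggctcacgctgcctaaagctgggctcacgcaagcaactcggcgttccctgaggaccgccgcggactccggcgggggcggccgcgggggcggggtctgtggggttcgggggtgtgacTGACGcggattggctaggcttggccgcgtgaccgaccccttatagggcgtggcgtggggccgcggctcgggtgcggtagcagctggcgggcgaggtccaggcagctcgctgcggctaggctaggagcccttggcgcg
Cacna1c: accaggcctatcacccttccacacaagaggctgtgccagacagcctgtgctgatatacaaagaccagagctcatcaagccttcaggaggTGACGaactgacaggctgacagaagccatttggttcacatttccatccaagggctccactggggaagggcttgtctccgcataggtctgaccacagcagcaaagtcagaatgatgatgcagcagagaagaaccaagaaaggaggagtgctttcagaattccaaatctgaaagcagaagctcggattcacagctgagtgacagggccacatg
Kcnc1: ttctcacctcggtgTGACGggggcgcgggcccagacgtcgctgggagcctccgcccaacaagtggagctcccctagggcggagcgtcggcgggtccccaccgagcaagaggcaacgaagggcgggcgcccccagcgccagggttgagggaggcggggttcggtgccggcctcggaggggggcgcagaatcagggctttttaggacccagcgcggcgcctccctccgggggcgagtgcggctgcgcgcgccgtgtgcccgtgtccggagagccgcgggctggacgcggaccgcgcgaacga
Kcna6: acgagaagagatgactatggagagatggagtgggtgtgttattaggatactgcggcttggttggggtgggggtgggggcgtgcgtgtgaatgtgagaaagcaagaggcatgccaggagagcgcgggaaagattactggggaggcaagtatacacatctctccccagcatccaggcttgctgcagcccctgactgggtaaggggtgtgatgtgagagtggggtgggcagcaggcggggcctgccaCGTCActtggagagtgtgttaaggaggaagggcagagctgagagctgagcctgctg
Kcnab2: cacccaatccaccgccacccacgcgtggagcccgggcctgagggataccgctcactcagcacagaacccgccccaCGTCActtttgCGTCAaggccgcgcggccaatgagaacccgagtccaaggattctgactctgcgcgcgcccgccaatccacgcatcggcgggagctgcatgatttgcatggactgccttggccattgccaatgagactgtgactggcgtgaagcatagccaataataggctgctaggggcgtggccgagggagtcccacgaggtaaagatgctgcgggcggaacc
The first base of the half-site lies 87 bases before the start in Cacna1b, 161 in Cacna1c, 236 in Kcnc1 and 6 in Kcna6, and Kcnab2 holds 2, at 175 and 164 bases. A match is a stretch of letters and says nothing of binding.

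Single arrays had an uneven part in the lower values. Wild-type array 2 was the highest of the 7 arrays for 35 of the 118 channel genes (29.7%), against 13.5% of all genes. Knockout array 2 was the lowest for 28 (23.7%), against 15.5% of all genes. Among the 19 on the lower side, wild-type array 2 was the highest for 12 and knockout array 2 the lowest for 11. The 19 were chosen for low knockout values, so these 2 counts cannot be set against the shares of all genes. Neuron markers leaned the same way. Of 20, 18 were negative and 5 reached an unadjusted p under 0.05 on the lower side, with a median difference of -0.064 and a mean level of 11.66 to 11.69 in knockout arrays and 11.71 to 11.79 in wild-type arrays. Among them Rbfox3, a splicing factor of mature neurons, differed by -0.18 without overlap (limma, adjusted p = 0.158). Thalamus and habenula markers were negative for 11 of 12, with a median of -0.35, and averaged 7.42 to 9.19 in wild-type arrays, a range that covers the knockout arrays. Hypothalamus markers were negative for 3 of 16, with a median of 0.13 and 4 at an unadjusted p under 0.05 on the higher side. Endothelial and mural markers had a median of -0.12 with 3 of 11 on the lower side, microglia markers -0.086 with 2 of 11, astrocyte markers 0.030 with 3 of 10 on the higher side, and oligodendrocyte markers -0.063 with 1 of 11 on the higher side. Of all genes, 6.12% were on the lower side and 5.6% on the higher side at an unadjusted p under 0.05. Pituitary markers averaged 6.15 to 6.36 in knockout arrays and 5.45 to 6.42 in wild-type arrays over 6 genes. The part of these tissues and cell types in the channel values was not tested. Without wild-type arrays 2 and 3 together, 13 channel genes were on the lower side at an unadjusted p under 0.05, where all genes gave 4.05%, and 10 of the 19 were among them.

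**Figure D5:**
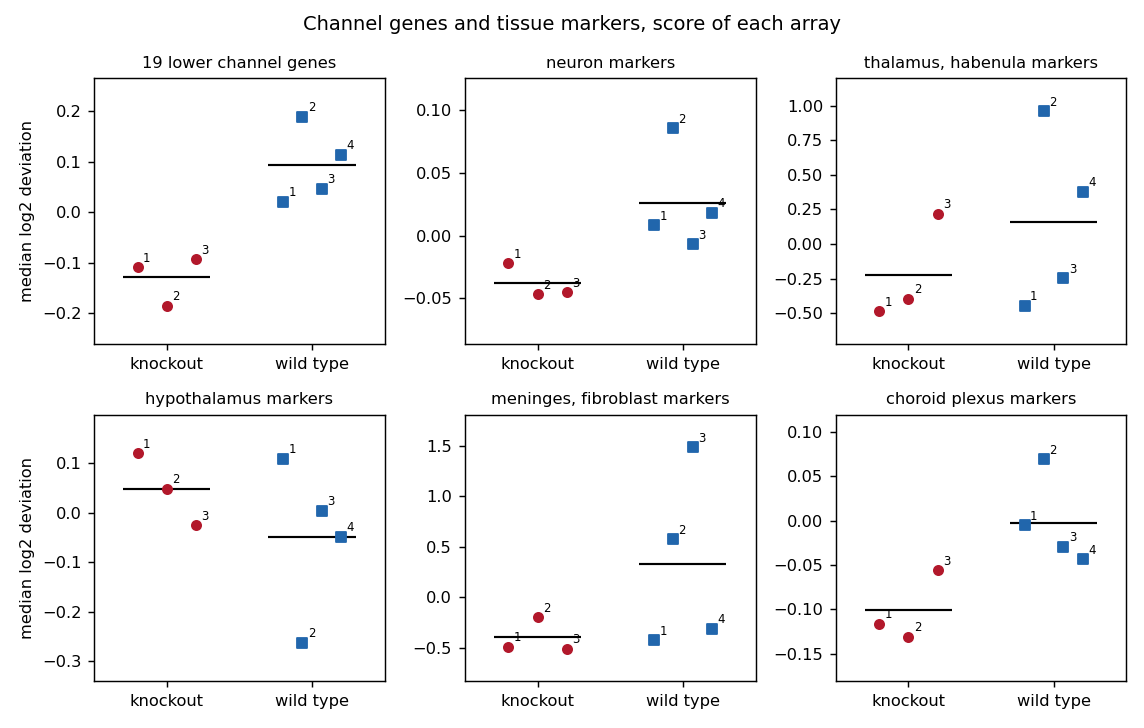
Median log2 deviation of a gene list from each gene's mean over the 7 arrays, per array, knockout arrays left of wild-type arrays, with points numbered by array, the group mean as a black line and a separate vertical range per panel. The 19 genes on the lower side, chosen on these values, sit between -0.19 and -0.094 in knockout arrays and between 0.021 and 0.19 in wild-type arrays, and wild-type array 2 is the highest in that list, the neuron markers and the thalamus and habenula markers.

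Genes that work with these channels but carry other names were read from a list of 32, of which 25 were measured here. By direction, 17 were negative and 8 positive, with a median of -0.042, and 0 passed the threshold. An unadjusted p under 0.05 was reached by 3 on the lower side (12%) and 1 on the higher side (4%), against 6.12% and 5.6% of all genes. The median level of the 25 was 9.65. In the ninth and the brightest of the 10 level bins, 12.8% and 10.7% of all genes were on the lower side. Ank3, ankyrin G, the scaffold that gathers sodium and Kcnq channels at the axon initial segment, read 12.61, 12.50 and 12.43 in knockout arrays, against 12.65, 12.66, 12.63 and 12.69 in wild-type arrays. Its groups did not overlap, with a difference of -0.15 ± 0.041 (SE; limma, adjusted p = 0.28). Nedd4l, a ubiquitin ligase that removes sodium and Kcnq channels from the membrane, differed by -0.22 without overlap (limma, adjusted p = 0.272), and Ank2, ankyrin B, by -0.14 (limma, adjusted p = 0.343). Unc79, a subunit of the sodium leak channel complex, differed by 0.23 (limma, adjusted p = 0.381) at a dim level. Hcn2, a pacemaker channel, differed by 0.11 (limma, adjusted p = 0.537).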

How the data were processed

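RNA of 7 hypothalamus samples was hybridised to Affymetrix mouse430_2 arrays, 1 array each. The authors deposited log2 expression values. R 2.10.0, affy and RMA are named per the submitters' processing notes, without order or settings. The number of arrays limits the precision. Nothing says that samples came from separate animals beyond the words biological replicate, so p-values measure the spread between these samples.

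Of 45101 probe sets, 64 controls were left out, and of the remaining 45037, 34945 carried 1 symbol, 932 several and 9160 none in the platform annotation, which gave 18193 genes. The 118 channel genes had 246 probe sets, all 246 with a gene identifier in the RefSeq table of GRCm38.p6, and 0 symbols changed. Each gene took its probe set of the highest mean. The main test was limma 3.58.1 under R 4.3.3 (lmFit, eBayes with an intensity trend, two-sided) on all genes, with p-values adjusted by Benjamini-Hochberg at 0.05, and the fit was tested on simulated data. Lists are described by counts and medians only. A list's level in an array is the mean over its genes.

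Named genes are the 12 of the smallest unadjusted p in each direction, the 2 of the smallest p per class, and members with a known part in Pomc or other hypothalamic neurons. Other members named were chosen after their values were seen. The members and lists were chosen with earlier results of these data known.

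Sex, not in the labels, was inferred from Xist and the Y chromosome transcript Eif2s3y: 1 female and 2 male knockout arrays, 2 female and 2 male wild-type arrays. Arrays of the same number deviated together from their group means (correlations of 0.318, 0.101 and 0.143), so the numbers, which come from the sample titles, were taken to pair them, and the same number as a block was an alternative. Other alternatives covered the dim filter, variance trend, array weights, centring, quantile normalization, the choice of probe set, sex, the thresholds and leaving out arrays. Plots used Python 3.11.15 and matplotlib 3.10.9.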

Additional observations from a re-analysis of the deposited data

Results flagged for a closer look

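Dixon's test was run in the 4 wild-type arrays for each of 48 named genes, and 6 genes had an array whose gap to the nearest other array divided by the group's range was above the 95% critical value. Chance gives about 1 such group in 20. For Scn1a, wild-type array 2 was high at 10.652, with the others between 10.483 and 10.509. For Kcnt1, wild-type array 1 was high at 9.153, with the others between 9.0468 and 9.0582. For Kcnh3, wild-type array 1 was high at 7.4033, with the others between 7.1656 and 7.1959. For Kcnk3, wild-type array 4 was high at 7.9077, with the others between 7.663 and 7.6929. For Kcnc1, wild-type array 4 was low at 11.105, with the others between 11.14 and 11.145. For Kcnn4, wild-type array 1 was low at 6.0717, with the others between 6.1859 and 6.2048. The knockout group has 3 arrays and was not tested this way.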

How the results depend on the processing

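In each of the 17 alternatives, 0 channel genes passed an adjusted p of 0.05 (limma). All 19 kept a negative sign. They were chosen for it on the same arrays that the alternatives refit, so the kept sign is no independent check. On the lower side at an unadjusted p under 0.05 stood 13 to 26, where all genes gave 4.05% to 8.43%. At an adjusted p of 0.10 the count was 0 with the values as reported, 1 with array weights (Cacna1a, 0.0934), 1 without knockout array 1 (Kcnc1, 0.0806) and 1 without wild-type array 1 (Cacna1a, 0.0762), and the lowest adjusted p of any channel gene ranged from 0.0762 to 0.73 over the 17 alternatives. At an unadjusted p under 0.01, 6 were on the lower and 0 on the higher side, and the share of all genes at that p was not counted. With every probe set tested, each gene took its probe set of the smallest p. The count of 4 on the higher side, against 5.6% of all genes, became 1 with dim genes dropped, against 5.0%. It was 8 with array weights, against 6.23% of all genes, and 8 with every probe set tested, against 9.12%. It was 2 under the replicate block (arrays 1 to 3), against 5.19%, and 1 without wild-type arrays 2 and 3 together, against 2.63%. The replicate block left 0 past an adjusted p of 0.05. It put 16 on the lower side, 14 of them among the 19, where all genes gave 6.24%. Without overlap, 16 were lower and 4 higher in that fit, where all genes gave 7.78% and 7.87%. Without overlap on the higher side stood 5 genes with the mean of all probe sets, 6 with every probe set and 8 without wild-type arrays 2 and 3, where all genes gave 6.28%, 9.66% and 12%. On the lower side stood 24 without these 2 arrays, where fewer arrays make separation more frequent (12.6% of all genes).

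Dropping dim genes moved the median over all channel genes to -0.053, calcium pores to -0.23, gamma subunits to -0.058 and Kv pores to -0.12. With the mean of all probe sets, the median was -0.096 for calcium pores, -0.0018 for alpha2delta, 0.026 for sodium pores and -0.041 for Kv pores. With every probe set tested it was 0.10 for alpha2delta, -0.17 for beta, -0.069 for gamma, 0.027 for sodium pores and 0.074 for Kv accessory genes. Quantile normalization gave 0.010 for Kv pores, and leaving out wild-type arrays 2 and 3 gave -0.031 for Kv pores and -0.10 for sodium beta subunits. The cause of these moves was not tested.

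Leaving out 1 array at a time gave 1 (without wild-type array 4) to 5 genes on the higher side, where all genes gave 4.03% to 6.9%. On the lower side it gave 13 (without knockout array 2) to 26 (without wild-type array 1), where all genes gave 4.08% to 7.57%. Without overlap and higher stood 4 to 11 (without knockout array 2), where all genes gave 7.78% to 11.4%. Without overlap and lower stood 16 to 28 (without knockout array 3), where all genes gave 7.78% to 11.7%. The medians ranged from -0.035 to -0.019 over all channel genes, -0.23 to -0.15 for calcium pores, -0.14 to -0.045 for alpha2delta, -0.15 to -0.069 for beta, -0.051 to -0.012 for gamma, -0.031 to 0.0057 for sodium pores, -0.29 to -0.076 for sodium beta, -0.021 to 0.0053 for Kv pores, -0.032 to 0.066 for Kv accessory genes, -0.067 to 0.053 for calcium- or sodium-activated channels, -0.077 to -0.013 for inward rectifiers, 0.0091 to 0.048 for two-pore channels and -0.094 to 0.037 for the noncoding pair.

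Among the 48 genes named by rule, signs turned for 9, of which Kcnd2 had the largest difference as reported (-0.15). Turned signs of members outside that list were not counted. With the mean of all probe sets, Cacna2d2 was at 0.019, Cacnb1 at 0.042, Kcnj6 at 0.13, Kcnq5 at 0.057 and Kcnk3 at 0.040. With every probe set tested, where a gene takes its probe set of the smallest p, Cacna2d2 was at 0.13 and Kcnj6 at 0.30. In that setting Kcnq5 was at 0.19, Kcnk3 at 0.14 and Kcnd2 at 0.18. All of these probe sets but that of Kcnq5 read below 5.70 in every array, a dim level. The other Kcnd2 probe sets differed by -0.13, -0.15 and -0.19. Kcnj6 was at 0.069 with the replicate block and 0.057 without wild-type arrays 2 and 3. Quantile normalization gave 0.017 for Kcnq5 and 0.0052 for Kcnk2, and sex as a covariate gave 0.0024 for Kcnq5. Leaving out 1 array gave -0.11 to 0.073 for Kcnj6, -0.038 to 0.015 for Kcnq5, -0.069 to 0.013 for Kcnk2, -0.14 to 0.062 for Kcnmb4os1 and -0.11 to 0.013 for Kcnmb4os2.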

Other observations

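Channel genes often lie side by side in the genome. In the RefSeq order of protein-coding genes, 18 pairs of measured channel genes were direct neighbours, and 11 of the 18 had differences of the same sign. In 1 pair both genes had an unadjusted p under 0.05 on the lower side, Kcna1 (-0.22) and Kcna6 (-0.14) on chromosome 6, and in 7 pairs a single gene did. The third gene of that cluster, Kcna5, a delayed rectifier of heart and vessels, differed by 0.12. The sodium beta subunits Scn2b and Scn4b on chromosome 9 differed by -0.23 and -0.28, and the rectifiers Kcnj9 and Kcnj10 on chromosome 1 by -0.27 and -0.17. On chromosome 14, Kcnk5 and Kcnk16 differed by 0.20 and 0.29. Neighbours of opposite sign were Scn1a (-0.16) and Scn9a (0.13) on chromosome 2, and Cacng1 (0.15) and Cacng4 (-0.18) on chromosome 11.

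With genes sorted by mean level into 10 equal bins, the median difference of channel genes was -0.0038 in the dimmest bin, -0.16 in the ninth and -0.092 in the brightest, where all genes had 0.034, -0.016 and -0.0056.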
